A study of Mus musculus with 19 samples.

Results

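The quadriceps RNA of AR113Q mice, a knock-in model of spinal and bulbar muscular atrophy (SBMA), was examined for the genes that set muscle size through insulin-like growth factor (IGF) and through myostatin and activin. The 9 genes Igf1, Igf2, Igf1r, Igfbp5, Mstn, Fst, Acvr2b, Acvr2a and Inhba were chosen by name among the 24739 genes tested. They were read by 14 probes of 1-colour Agilent arrays, 5 of them for Igf1, 2 for Acvr2a and 1 for each other gene. All 14 passed the filter on dim probes, and each was well above background and below saturation on every one of the 19 arrays. AR113Q mice express an androgen receptor with an expanded glutamine tract from the mouse gene's own locus, and the controls (CTR) were wild type. All were C57Bl6J males killed at 180 days of age. From 40 days of age they were fed a diet rich in fat (HFD) or a purified normal chow diet (NCD). On NCD there were 5 CTR and 5 AR113Q arrays, and on HFD 4 CTR and 5 AR113Q arrays. The sources used here do not state whether each array held the RNA of 1 animal, so the p-values measure the spread between these samples.

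IGF1 and IGF2 are secreted growth factors that act through the receptor encoded by Igf1r, and in muscle the signal runs through insulin receptor substrates, PI3-kinase, Akt and mTOR to protein synthesis. IGF binding proteins hold the growth factors outside the cell, and IGFBP5 is the binding protein best known for its part in myoblast differentiation. Myostatin, made by muscle fibers themselves, and activin A, a dimer of the Inhba product, restrain muscle growth. They bind the type II receptors encoded by Acvr2a and Acvr2b, which act through SMAD2 and SMAD3. Follistatin, the product of Fst, captures both ligands.

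The probes that carry the findings are shown by their first 30 of 60 bases, 5′ to 3′, with their place on the mm9 build as the scanner files give it. The Igfbp5 and Acvr2a probes are given because they changed on both diets and the Igf2 probe because it changed on NCD. The Igf1 probes are given because they gave unequal values, and the capitals mark the bases that 2 of them share.
Igfbp5 A_52_P281702 (chr1:72904829-72904888, - strand): cacatcacatattactgtagctctctatag
Acvr2a, brightest probe A_66_P113760 (chr2:48758429-48758488, + strand): tggacaaagatacaagtagcatcttgatta
Acvr2a, dimmer probe A_52_P664656 (chr2:48757324-48757383, + strand): acctcctttaaaagctgataaatgagggat
Igf2 A_55_P2118173 (chr7:149839661-149839720, - strand): atcaaattatgtggtaattctgcaatgtag
Igf1, brightest probe A_55_P2085979 (chr10:87378456-87378515, + strand): aaccattaaaaacatgccaccaagaccttc
Igf1 A_55_P2085984 (chr10:87393561-87393620, + strand): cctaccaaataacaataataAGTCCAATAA
Igf1 A_55_P2031631 (chr10:87393581-87393640, + strand): AGTCCAATAACATTACAAAGATGGGCATTT
Igf1 A_55_P2031636 (chr10:87395924-87395983, + strand): agaaatgtaaatggaataagaggtcagctg
Igf1 A_55_P2085974 (chr10:87399581-87399640, + strand): ctcctgattgtatttgaagtggttattcaa
The remaining members were each read by 1 probe, Igf1r at chr7:75378461-75378520, Mstn at chr1:53124482-53124541, Fst at chr13:115243565-115243624, Acvr2b at chr9:119342560-119342619 and Inhba at chr13:16118634-16118693. No annotation of this build was used here, so the exon or untranslated region that each probe reads was not assigned.

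Levels are log2 signals relative to the 75th percentile of the same array, so that 0 is the level of the probe at that percentile and a difference of 1 is a factor of 2. The fold change of a gene is the AR113Q mean minus the CTR mean on that scale, taken from its brightest probe, and a gene was called changed at an adjusted p under 0.05 in limma, adjusted over all 32023 probes tested. Of the 9 genes, 3 were lower in AR113Q than in CTR muscle on NCD (Igfbp5, Acvr2a and Igf2) and 0 were higher. On this diet 9.04% of all genes tested were lower and 8.1% were higher. On HFD 2 of the 9 were lower (Igfbp5 and Acvr2a) and 0 were higher, where 10.5% of all genes were lower and 7.49% were higher. Averaged over both diets the same 3 genes as on NCD were lower, against a background of 16.3% lower and 12.7% higher. At an unadjusted p under 0.05 in limma, 5 of the 14 probes passed on NCD (Igfbp5, both Acvr2a probes and Igf2 lower, Igf1r higher) and 4 on HFD (Igfbp5, both Acvr2a probes and 1 Igf1 probe, all lower). Of all probes tested, 28.5% passed at that level on NCD and 29.2% on HFD, so the members' shares were close to the background. The NCD and HFD comparisons share no array, but they share slides and the estimate of the spread, so they are not independent tests.

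**Figure D1:**
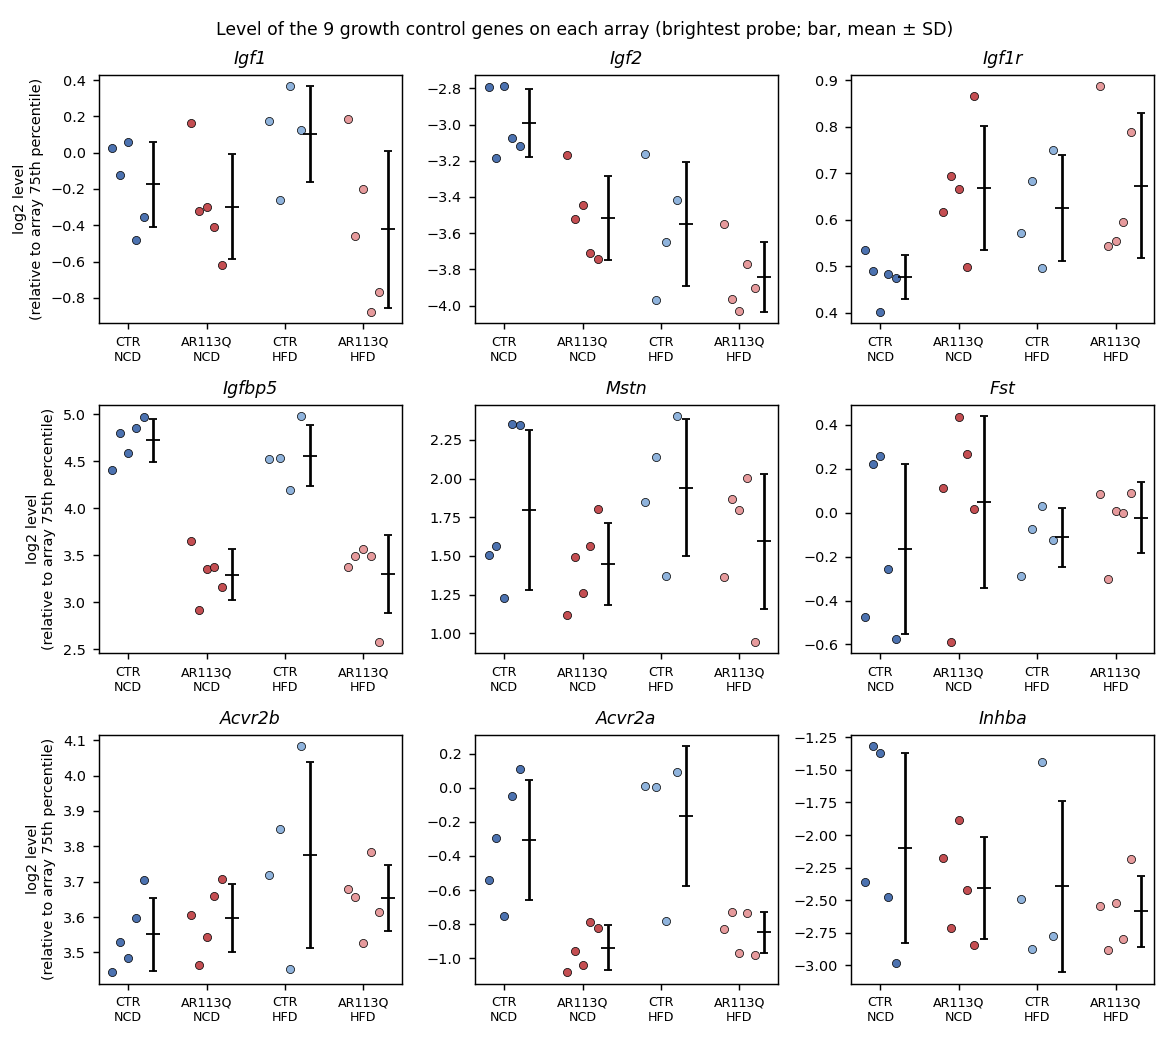
Log2 level (relative to the array's 75th percentile) of each of the 9 genes by its brightest probe, with 1 point per array in the 4 groups and a bar for the mean ± SD beside each group. The Igfbp5 points of the AR113Q groups all lie below those of the CTR groups on the same diet, whereas the points of Mstn, Fst and Inhba overlap between the groups.

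Igfbp5 had the largest genotype difference among the 9 genes. The 5 CTR-NCD arrays read 4.40, 4.80, 4.58, 4.85 and 4.97, and the 5 AR113Q-NCD arrays read 3.65, 2.92, 3.35, 3.37 and 3.16. The highest AR113Q array was thus below the lowest CTR array on NCD. The 4 CTR-HFD arrays read 4.52, 4.53, 4.19 and 4.98, and the 5 AR113Q-HFD arrays read 3.38, 3.49, 3.56, 3.49 and 2.57. The groups did not overlap on HFD either. Every AR113Q array lay below every CTR array for 8.02% of all genes on NCD and for 8.69% on HFD. The group means were 4.72 ± 0.23 (SD, n = 5) in CTR-NCD and 3.29 ± 0.27 (n = 5) in AR113Q-NCD. They were 4.56 ± 0.32 (n = 4) in CTR-HFD and 3.30 ± 0.41 (n = 5) in AR113Q-HFD.

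The Igfbp5 signal of AR113Q muscle was 0.371 of the CTR signal on NCD, a log2 fold change of -1.43 (SE 0.19; limma, adjusted p = 7.26e-05). On HFD it was 0.418 of the CTR signal, a log2 fold change of -1.26 (SE 0.20; limma, adjusted p = 0.000369). The 2-sided exact permutation test gave p = 0.00794 on each diet, which is the smallest value that these numbers of arrays allow. Adjusted over the 56 permutation tests of the members, it was 0.127 on each diet. Igfbp5 was lower in AR113Q on all 5 slides that held both NCD groups, with log2 differences from -1.88 to -0.75. It was lower on all 4 slides that held both HFD groups, with log2 differences from -2.41 to -0.63. With slide as a block the adjusted p was 0.000445 on NCD and 0.0013 on HFD. In bulk muscle RNA, fewer cells that express a gene and less RNA per cell cannot be told apart.

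Acvr2a, the type II activin receptor, was the second member that changed on both diets. By its brightest probe the CTR-NCD arrays read -0.54, -0.30, -0.75, -0.05 and 0.11, and the AR113Q-NCD arrays read -1.08, -0.96, -1.04, -0.79 and -0.82. No AR113Q-NCD array reached the lowest CTR-NCD array, although the gap between them was narrow. The CTR-HFD arrays read 0.01, 0.00, -0.78 and 0.10, and the AR113Q-HFD arrays read -0.83, -0.73, -0.97, -0.74 and -0.98. CTR-HFD replicate 3 therefore lay inside the AR113Q-HFD range and the groups overlapped. The genotype difference of Acvr2a was -0.63 (SE 0.17; limma, adjusted p = 0.0147) on NCD and -0.68 (SE 0.18; adjusted p = 0.0131) on HFD, or 0.645 and 0.624 of the CTR signal. The spread was smaller among AR113Q arrays, with an SD of 0.13 on NCD and 0.12 on HFD, than among CTR arrays, with 0.35 and 0.41; this difference in spread was not tested.

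The dimmer Acvr2a probe, which lies 1105 bases upstream of the brightest one, gave log2 fold changes of similar size. On NCD its mean was -2.95 ± 0.37 (SD) for CTR and -3.59 ± 0.33 for AR113Q. On HFD the means were -2.86 ± 0.50 for CTR and -3.47 ± 0.34 for AR113Q. The difference was -0.64 (SE 0.23) on NCD and -0.61 (SE 0.25) on HFD. Neither passed the threshold in limma (adjusted p = 0.0705 and 0.105), whereas the difference over both diets did (-0.62, SE 0.17; adjusted p = 0.0096). The brightest probe was lower in AR113Q within all 5 NCD slides, with log2 differences from -0.93 to -0.29, and within all 4 HFD slides, from -1.08 to -0.19. With slide as a block its adjusted p was 0.00336 on NCD and 0.00205 on HFD. The HFD call was lost without CTR-HFD replicate 4, where the log2 fold change was -0.59 (adjusted p = 0.0514).

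Acvr2b, which encodes the other type II receptor, was not called on either diet. Its level ran from 3.44 to 3.70 in CTR-NCD and from 3.46 to 3.71 in AR113Q-NCD. It ran from 3.45 to 4.08 in CTR-HFD and from 3.53 to 3.78 in AR113Q-HFD. The genotype difference was 0.04 (95% confidence interval -0.16 to 0.25) on NCD and -0.12 (-0.34 to 0.09) on HFD, with adjusted p of 0.82 and 0.474 in limma. Acvr2b read 0.22 higher in CTR-HFD than in CTR-NCD with an unadjusted p of 0.041, which did not pass after adjustment (limma, adjusted p = 0.56). The difference between the 2 receptors' fold changes was not tested. Over the 19 arrays the levels of Acvr2a and Acvr2b had r = 0.538, and r = 0.792 as deviations from the group means, given as a description. As deviations, Acvr2a also had r = 0.824 with Mstn, -0.795 with Inhba and 0.507 with Igfbp5. The relation was thus not particular to the 2 receptors.

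**Figure D2:**
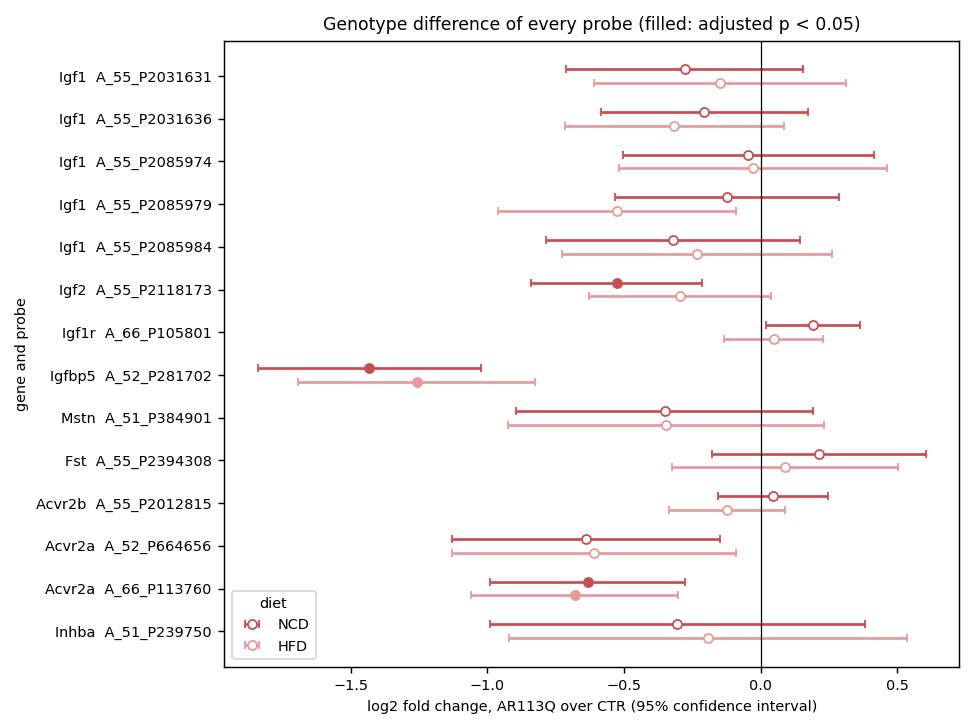
Log2 fold change of AR113Q over CTR with its 95% confidence interval for each of the 14 probes, on NCD and on HFD; filled points have an adjusted p under 0.05. The 5 filled points are those of Igfbp5 and of the brightest Acvr2a probe on both diets and of Igf2 on NCD, and all of them lie left of 0.

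Of the growth factor ligands, Igf2 changed on NCD. Its CTR-NCD arrays read -2.79, -3.19, -2.79, -3.08 and -3.12, and its AR113Q-NCD arrays read -3.17, -3.52, -3.45, -3.71 and -3.74. The groups met at a single point, with AR113Q-NCD replicate 1 just above CTR-NCD replicate 2. This gave a log2 fold change of -0.53 (SE 0.15; limma, adjusted p = 0.0202), or 0.694 of the CTR signal, which was negative on all 5 slides, from -0.66 to -0.33. With slide as a block the adjusted p was 0.003. The call did not hold without CTR-NCD replicate 1 (-0.48), without CTR-NCD replicate 3 (-0.48) or without AR113Q-NCD replicate 5 (-0.47). Without these arrays the adjusted p in limma was 0.0537, 0.0508 and 0.0576 in turn.

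On HFD the CTR arrays of Igf2 read -3.16, -3.97, -3.65 and -3.42 and the AR113Q arrays read -3.55, -3.96, -4.03, -3.77 and -3.90. The CTR-HFD arrays spanned most of the AR113Q-HFD range, and the log2 fold change of -0.30 (SE 0.16) did not pass the test (limma, adjusted p = 0.235). The genotype differences on the 2 diets did not differ detectably (interaction 0.23, 95% confidence interval -0.23 to 0.69; adjusted p = 0.999). Igf2 also had the largest diet difference among the 9 genes in CTR muscle. Its mean was -2.99 ± 0.19 (n = 5) in CTR-NCD and -3.55 ± 0.34 (n = 4) in CTR-HFD, a log2 difference of -0.56 (SE 0.16) with an unadjusted p of 0.00264 in limma. It did not pass after adjustment (adjusted p = 0.351), and 0% of all genes were called in either direction in this comparison. In AR113Q muscle the diet difference of Igf2 was -0.32 (adjusted p = 0.734), where 0% of genes were called higher and 0.0202% lower on HFD.

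The 5 Igf1 probes gave unequal values. The brightest, which is annotated in the files to a different transcript than the others, read 0.02, -0.12, 0.06, -0.48 and -0.35 in CTR-NCD and 0.17, -0.32, -0.30, -0.41 and -0.62 in AR113Q-NCD. It read 0.17, -0.26, 0.37 and 0.13 in CTR-HFD and 0.19, -0.46, -0.20, -0.88 and -0.77 in AR113Q-HFD. The NCD groups overlapped almost wholly, and on HFD 2 of the 5 AR113Q arrays lay within the CTR range. The log2 fold change of this probe was -0.12 (SE 0.19) on NCD and -0.53 (SE 0.21) on HFD, and neither passed in limma (adjusted p = 0.75 and 0.0925). With slide as a block the HFD value was -0.45 and its adjusted p was 0.024; within the 4 slides it ran from -0.89 to 0.01. Without AR113Q-HFD replicate 1, the highest array of its group, it was -0.68 (adjusted p = 0.0219). It was called on HFD under 4 of the 23 alternatives tried.

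The other 4 Igf1 probes lie 15.1, 15.1, 17.5 and 21.1 kb downstream of the brightest one. Their log2 fold changes ran from -0.32 to -0.04 on NCD and from -0.32 to -0.03 on HFD, and 0 of the 4 passed the test on either diet. With arrays centred on their median, the most downstream probe read 0.01 on NCD and 0.03 on HFD. The 2 probes whose sequences share 40 bases, printed above with the shared stretch in capitals, moved together over the 19 arrays with r = 0.984, as a description. The brightest probe correlated with these 2 at r = 0.126 and 0.199, with the most downstream probe at r = 0.105 and with A_55_P2031636 at r = 0.602. The most downstream probe correlated with the 2 overlapping probes at r = 0.830 and 0.811. All these points come from the same 19 libraries. Igf1 is thus described by probe rather than by 1 level.

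**Figure D3:**
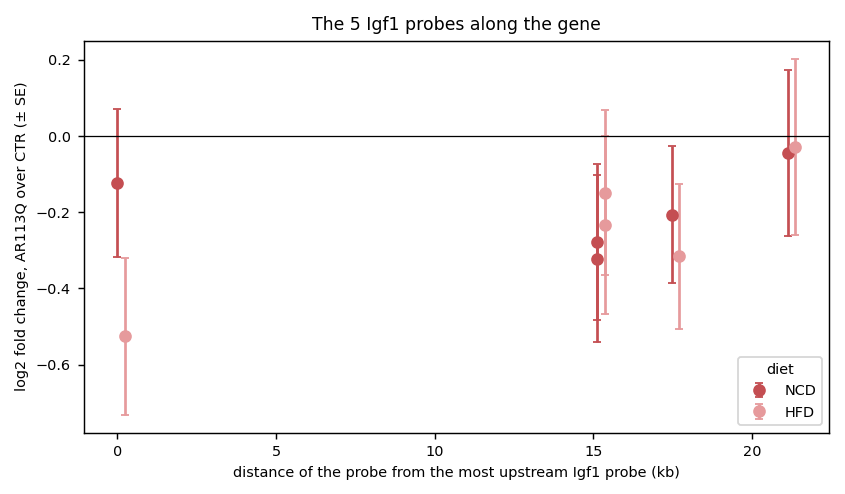
Log2 fold change of AR113Q over CTR with its SE for the 5 Igf1 probes, against their distance in kb from the most upstream probe, on NCD and on HFD (HFD points are drawn slightly to the right). The largest HFD value, -0.53, belongs to the most upstream probe and the smallest, -0.03, to the probe 21.1 kb further on.

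Igf1r, the receptor of both IGF ligands, read from 0.40 to 0.54 in CTR-NCD and from 0.50 to 0.87 in AR113Q-NCD. These groups overlapped at 1 AR113Q array, and the difference of 0.19 (SE 0.08) did not pass after adjustment over all probes (limma, adjusted p = 0.125). Before adjustment the 2-sided exact permutation test gave p = 0.0159. It read from 0.50 to 0.75 in CTR-HFD and from 0.54 to 0.89 in AR113Q-HFD, with a difference of 0.05 (95% confidence interval -0.13 to 0.23; adjusted p = 0.773).

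Myostatin itself was not called. Mstn read 1.51, 1.56, 1.23, 2.35 and 2.34 in CTR-NCD and 1.12, 1.49, 1.26, 1.56 and 1.80 in AR113Q-NCD. It read 1.85, 2.14, 1.37 and 2.40 in CTR-HFD and 1.36, 1.87, 1.80, 2.01 and 0.94 in AR113Q-HFD. The CTR-NCD arrays fell into a lower set (replicates 1, 2 and 3) and a higher pair (replicates 4 and 5), and the AR113Q arrays lay within or below the CTR range on both diets. The genotype difference of Mstn was -0.35 (SE 0.26) on NCD and -0.35 (SE 0.27) on HFD. Neither passed the test (limma, adjusted p = 0.424 and 0.451), and the 95% confidence intervals ran from -0.90 to 0.19 and from -0.92 to 0.23.

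Inhba, the activin A subunit, had the widest spread. Its CTR-NCD arrays read -2.36, -1.32, -1.37, -2.48 and -2.98, its AR113Q-NCD arrays ran from -2.84 to -1.88, its CTR-HFD arrays from -2.87 to -1.44 and its AR113Q-HFD arrays from -2.88 to -2.19. Its log2 fold change was -0.31 (SE 0.32; limma, adjusted p = 0.608) on NCD and -0.19 (SE 0.34; adjusted p = 0.774) on HFD. Fst, the inhibitor of both ligands, ran from -0.57 to 0.26 in CTR-NCD, from -0.59 to 0.44 in AR113Q-NCD, from -0.29 to 0.03 in CTR-HFD and from -0.30 to 0.09 in AR113Q-HFD. Its log2 fold change was 0.21 (95% confidence interval -0.18 to 0.61; adjusted p = 0.512) on NCD and 0.09 (-0.33 to 0.50; adjusted p = 0.82) on HFD.

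No member was called for diet in either genotype or for the genotype by diet interaction. For the interaction 0% of all genes were called in either direction. In limma at an unadjusted p under 0.05, 2 of the 14 member probes passed for diet in CTR muscle (Igf2 and Acvr2b), 1 in AR113Q muscle (Igf2) and 0 for the interaction. Of all probes 8.7%, 6.7% and 4.69% passed in these comparisons, close to the members' shares. The genotype difference of Igfbp5 was close on both diets, with an interaction of 0.17 (95% confidence interval -0.42 to 0.77).

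Muscle fiber genes and genes that respond to denervation were called between the genotypes. Slow fiber genes varied widely within every group but AR113Q-NCD. The mean level of 8 skeletal muscle fiber genes ran from 8.15 to 8.43 in CTR-NCD, from 7.89 to 8.06 in AR113Q-NCD, from 8.15 to 8.39 in CTR-HFD and from 7.81 to 7.98 in AR113Q-HFD, and 6 of the 8 were called lower on each diet, with Des called higher on HFD. Their levels were high on every array, as in the labelled tissue. Myh4, Myh1, Actn3, Tnnt3 and Pvalb of this list are genes of fast fibers. Of 7 genes known to respond to denervation, 4 were called higher on NCD and 5 on HFD, and their mean ran from -1.73 to -1.42 in CTR-NCD and from -0.97 to -0.70 in AR113Q-NCD. A list of 8 slow fiber genes, which also holds Myh2 of fast oxidative fibers, ranged from 0.89 to 4.98 in CTR-NCD, from 4.87 to 5.85 in AR113Q-NCD, from -0.84 to 5.30 in CTR-HFD and from 0.62 to 4.62 in AR113Q-HFD. None of the 8 was called on either diet, although all 8 read higher in AR113Q than in CTR on both diets. Their log2 fold changes ran from 0.99 to 2.55 on NCD, with a median of 2.28. On HFD they ran from 0.65 to 1.88, with a median of 1.07. The highest CTR arrays for this list were CTR-NCD replicates 2 and 3 and CTR-HFD replicate 3. Fibroblast, adipocyte, macrophage, endothelial, satellite cell, Schwann cell and red blood cell lists had between 0 and 3 genes called on a diet.

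Because slow fiber markers varied so widely, each member was set against the mean of that list as deviations from the group means over the 19 arrays. Of the 27 relations computed between the 9 genes and the slow fiber, denervation and muscle fiber lists, 2 passed Benjamini-Hochberg adjustment in a 2-sided permutation test within groups. This permutation took no account of the slides, which held arrays of different groups together. Mstn was lower on arrays with more slow fiber signal (r = -0.74, p = 0.00248, adjusted p = 0.0335; rho = -0.73, p = 0.00358, adjusted p = 0.0483). Inhba was higher on them (r = 0.71, p = 0.00217, adjusted p = 0.0335; rho = 0.70, p = 0.002, adjusted p = 0.0483). Without the 2 arrays farthest from the median of the slow fiber list, r was -0.67 for Mstn and 0.60 for Inhba. Acvr2a gave r = -0.63 (permutation p = 0.0307, adjusted p = 0.145), which was -0.38 without the 2 farthest arrays. Igfbp5 gave r = -0.58 (permutation p = 0.0222, adjusted p = 0.145), which was -0.43 without them.

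**Figure D4:**
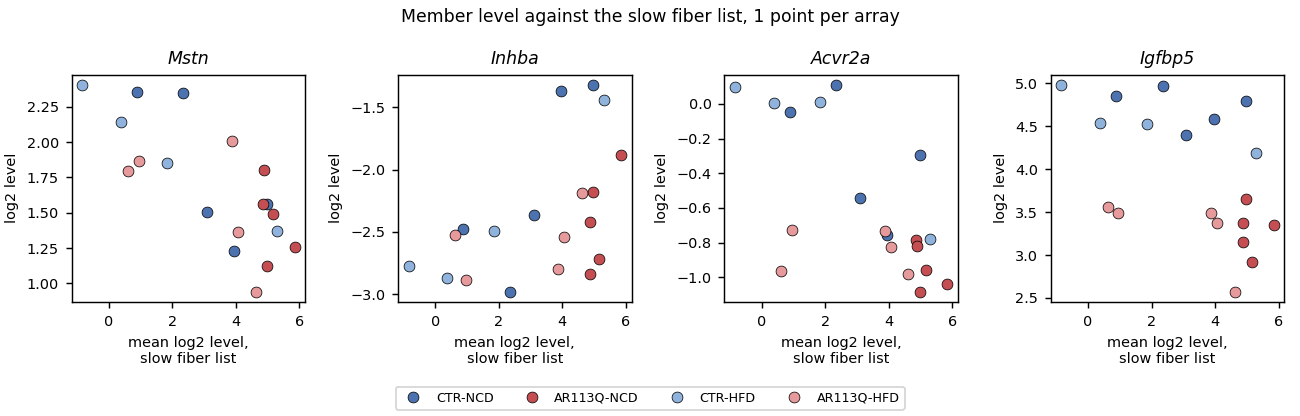
Log2 level of Mstn, Inhba, Acvr2a and Igfbp5 against the mean log2 level of the slow fiber list, with 1 point per array coloured by group. Mstn is lower (r = -0.74 within groups) and Inhba higher (r = 0.71) on arrays with more slow fiber signal. The Igfbp5 points of AR113Q arrays lie below those of CTR arrays over the whole range.

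Without the 3 CTR arrays with the highest slow fiber level, a set chosen after the values were seen, Igfbp5 and Acvr2a were called on both diets. The log2 fold change of Acvr2a was -0.78 on NCD and -0.89 on HFD (limma, adjusted p = 0.000991 and 0.00033), and that of Igfbp5 was -1.45 and -1.38. That of Igf2 on NCD was -0.52 with an adjusted p of 0.0607. Mstn was then -0.62 on NCD and -0.54 on HFD, not called on either diet (adjusted p = 0.123 and 0.189) but called over both. With all arrays Mstn was not called over both diets (-0.35, limma, adjusted p = 0.186). Without the 3 CTR arrays, 4172 of the 32023 probes tested were called higher over both diets and 5803 lower. Inhba turned to 0.20 on NCD and 0.13 on HFD. Leaving these arrays out lowered the mean slow fiber level of CTR. That mean was already below the AR113Q mean, at 3.05 against 5.15 on NCD and 1.67 against 2.83 on HFD. It also removed the lowest CTR arrays of Acvr2a, CTR-NCD replicate 3 at -0.75 and CTR-HFD replicate 3 at -0.78. This alternative therefore cannot separate genotype from fiber type, and the part of fiber type in the genotype differences was not tested.

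The wider IGF family was read by lists of pathway genes, each gene by its brightest probe. The counts of each list stand against the shares of all genes called, 8.1% higher and 9.04% lower on NCD and 7.49% higher and 10.5% lower on HFD. Of 14 measured IGF ligands, receptors and binding proteins, 2 were lower on NCD and 0 higher, and on HFD 1 was lower and 1 higher. The median log2 fold change of the list was -0.02 on NCD and -0.07 on HFD, against -0.06 and -0.09 over all genes tested. The gene that was higher on HFD was Igf2r, which clears IGF2 from outside the cell (0.31, SE 0.08; limma, adjusted p = 0.0118). The other binding proteins measured, Igfbp2, Igfbp3, Igfbp4, Igfbp6 and Igfbp7, were not called, with log2 fold changes from -0.47 to 0.03 on NCD and from -0.48 to 0.23 on HFD.

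Genes that relay the receptor signal were called in both directions. The list's highest log2 fold change was that of Grb14, an adaptor related to Grb10, which was not called (1.33, SE 0.45, adjusted p = 0.0532 on NCD; 1.01, SE 0.48, adjusted p = 0.176 on HFD in limma) and is named here after its values were seen. Of 26 genes from the insulin receptor substrates to mTOR, 7 were higher and 3 lower on NCD, and 6 were higher and 4 lower on HFD, with a median of 0.01 and -0.04. Grb10, an adaptor that damps the insulin and IGF1 receptors, rose by 0.54 (SE 0.10; adjusted p = 0.000949) on NCD and 0.55 (adjusted p = 0.00134) on HFD. Its arrays ran from -2.27 to -1.93 in CTR-NCD and from -1.81 to -1.27 in AR113Q-NCD, without overlap. Eif4ebp1, a repressor of translation that mTOR inactivates, rose by 0.52 and 0.53 (adjusted p = 0.00536 and 0.007). Rptor, the defining subunit of mTOR complex 1, rose by 0.30 on both diets (adjusted p = 0.00506 and 0.00734).

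Sesn1, an inhibitor of mTOR complex 1, rose by 0.55 on NCD (limma, adjusted p = 0.000984) and read 0.19 on HFD (adjusted p = 0.252). Gsk3a, a kinase that Akt inhibits, was lower on both diets (-0.39 and -0.55; adjusted p = 0.00125 and 0.000123). Rictor, the defining subunit of mTOR complex 2, was lower on NCD (-0.58, adjusted p = 0.0034) and read -0.36 on HFD (adjusted p = 0.0737). Irs1, a docking protein of the insulin and IGF1 receptors, was named after its values were seen. Its arrays ran from 2.97 to 3.12 in CTR-NCD and from 2.18 to 3.02 in AR113Q-NCD, and from 2.79 to 3.50 in CTR-HFD, against at most 2.38 in AR113Q-HFD. The groups overlapped at 1 AR113Q array on NCD and not at all on HFD, and the log2 fold changes were -0.57 and -1.02 (adjusted p = 0.0132 and 0.000274).

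**Figure D5:**
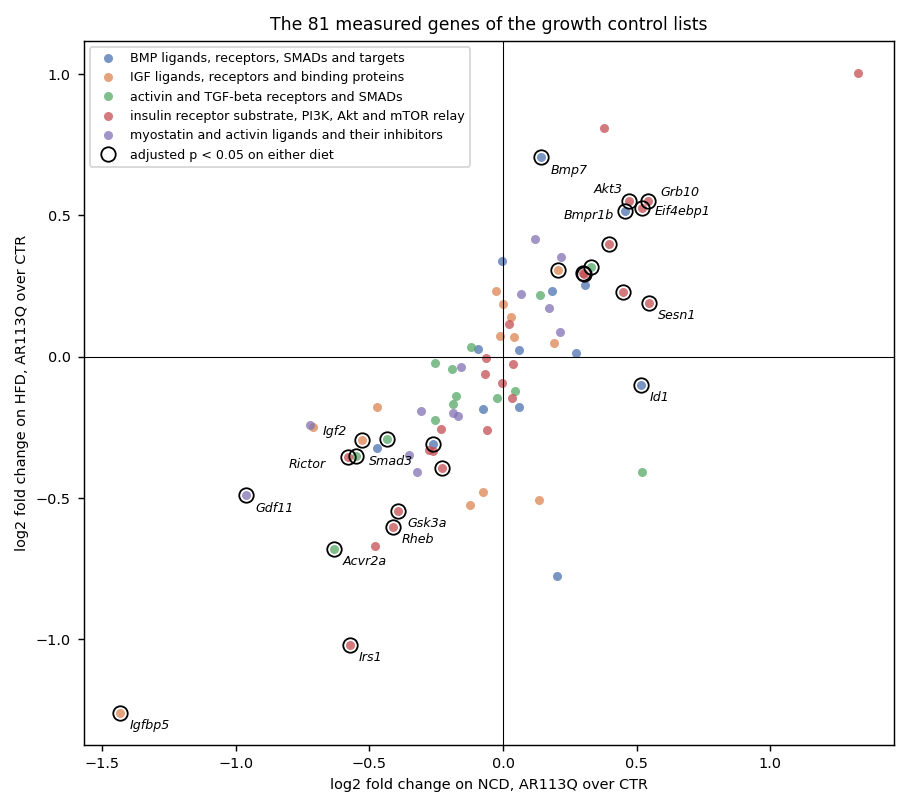
Log2 fold change of AR113Q over CTR on HFD against that on NCD for the 81 measured genes of the 5 growth control lists, coloured by list; ringed genes had an adjusted p under 0.05 on either diet. Igfbp5 lies farthest from 0 at -1.43 and -1.26, and Irs1, Acvr2a and Gdf11 follow on the lower left.

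Of the 13 myostatin and activin ligands and their inhibitors, 1 was lower on NCD and 0 were called on HFD, with a median of -0.17 and -0.19. The gene called was Gdf11, the closest relative of myostatin. Its arrays read -3.81, -3.05, -3.02, -3.76 and -2.60 in CTR-NCD and -4.16, -4.76, -4.34, -3.85 and -3.95 in AR113Q-NCD, without overlap. The difference was -0.96 (SE 0.24; limma, adjusted p = 0.00897) on NCD and -0.49 (SE 0.25; adjusted p = 0.212) on HFD. Inhbb, Fstl1, Fstl3, Wfikkn1 and Wfikkn2 were not called on either diet.

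Of 14 activin and TGF-beta receptors and SMAD genes, 1 was higher and 3 lower on NCD, and 1 was higher and 2 lower on HFD, with a median of -0.18 and -0.14. Beside Acvr2a, the ubiquitin ligase gene Smurf2 was lower on both diets (-0.43 and -0.29; limma, adjusted p = 0.000101 and 0.00428). Its arrays ran from 0.80 to 0.98 in CTR-NCD and from 0.33 to 0.55 in AR113Q-NCD. Smad3, which carries the myostatin and activin signal to the nucleus, was lower on NCD (-0.55, adjusted p = 0.0411) and read -0.35 on HFD (adjusted p = 0.238). Tgfbr2, the type II receptor of TGF-beta, rose by 0.33 and 0.32 (adjusted p = 0.0303 and 0.0483).

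Of 14 measured genes of bone morphogenetic protein (BMP) signalling, the branch that opposes myostatin in muscle, 2 were higher and 0 lower on NCD, and 2 were higher and 1 lower on HFD, with a median of 0.10 and 0.02. Bmpr1b, a type I receptor, rose by 0.46 and 0.51 (limma, adjusted p = 0.0157 and 0.0105), although with normexp background correction the NCD value was -0.03. Id1, a target of BMP signalling, rose by 0.52 on NCD (adjusted p = 0.0473) and read -0.10 on HFD (adjusted p = 0.775). On HFD the ligand gene Bmp7 rose by 0.71 (adjusted p = 0.0422), and the receptor gene Bmpr1a was lower (-0.31, adjusted p = 0.0299). Over all 81 measured genes of the 5 lists, 10 were higher and 9 lower on NCD, and 10 higher and 8 lower on HFD. The shares lower were near the background of all genes, 9.04% on NCD and 10.5% on HFD. The shares higher were somewhat above it, 8.1% and 7.49%, which was not tested. Most of the genes higher were in the list from the insulin receptor substrates to mTOR, 7 on NCD and 6 on HFD. Igfbp1, Gdf6, Smad9 and Grem1 did not pass the filter on dim probes.

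Promoter sequence was taken from RefSeq (GRCm38.p6), whose table held 8 of the 9 genes; Fst was not in it. The 250 bases before the start are printed for Igfbp5 and Acvr2a, which changed on both diets, and for Mstn, whose level ran opposite to the slow fiber markers. Capitals mark CANNTG, the E-box that myogenic factors can bind, and TATAAA, searched on both strands.
Igfbp5 (chr1:72874866-72875115, - strand): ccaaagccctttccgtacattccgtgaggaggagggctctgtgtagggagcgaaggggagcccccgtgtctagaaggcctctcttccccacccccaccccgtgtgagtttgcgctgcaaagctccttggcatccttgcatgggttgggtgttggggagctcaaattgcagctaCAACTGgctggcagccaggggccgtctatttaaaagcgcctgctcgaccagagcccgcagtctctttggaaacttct
Acvr2a (chr2:48813859-48814108, + strand): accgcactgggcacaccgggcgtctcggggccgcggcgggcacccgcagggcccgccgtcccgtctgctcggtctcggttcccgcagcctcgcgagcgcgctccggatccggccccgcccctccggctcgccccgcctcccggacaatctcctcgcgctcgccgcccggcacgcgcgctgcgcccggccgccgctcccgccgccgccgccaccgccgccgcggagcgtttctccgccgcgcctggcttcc
Mstn (chr1:53061390-53061639, + strand): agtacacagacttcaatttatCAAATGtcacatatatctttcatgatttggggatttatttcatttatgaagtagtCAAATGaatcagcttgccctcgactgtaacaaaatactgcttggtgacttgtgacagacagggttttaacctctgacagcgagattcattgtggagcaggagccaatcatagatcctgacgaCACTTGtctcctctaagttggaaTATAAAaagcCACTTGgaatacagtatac
The window of Mstn held 4 E-boxes and 1 TATAAA, that of Igfbp5 held 1 E-box and no TATAAA, and that of Acvr2a held neither. Among all 32851 promoter windows of this length 66.2% held an E-box and 12.4% held TATAAA. The GC content was 38.4% for Mstn, 58.8% for Igfbp5 and 82.0% for Acvr2a. A match of these letters is a description of the sequence and not a binding site.

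Of all genes by their brightest probe, the 5 whose level was most like that of Igfbp5 over the 19 arrays were Kcnf1 (r = 0.973), a transcript with no gene name in the files (0.971), Ccdc6 (0.967), Amd2 (0.964) and Vasp (0.964). Within the groups, r with these ran from 0.724 for Amd2 to 0.894 for Kcnf1. The 3 most opposite were Myl12a (-0.965), an unnamed probe (-0.965) and Ilvbl (-0.963). For Acvr2a the most like were Morf4l2 (0.982), Me1 (0.975), the transcript listed as LOC100505064 (0.975), Stat5b (0.972) and Tada2a (0.971), and the most opposite were Nt5c2 (-0.969), Parp12 (-0.967) and Zcchc3 (-0.966). Within the groups, r was 0.950 for Morf4l2 and -0.920 for Nt5c2. For Igf2 the most like were 1700047G07Rik (0.902), Zc3h10, Tbxa2r (0.891), Exoc3l (0.881) and Poldip2 (0.875), and the most opposite were Zdhhc13 (-0.920), Ube2z (-0.917) and Mtm1 (-0.905). These values are the extremes of 24739 genes over the same 19 libraries and are given as a description.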

How the data were processed

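Quadriceps RNA of 19 samples in 4 groups was hybridised to 1-colour Agilent arrays. The deposited scanner files, made by the authors with Agilent Feature Extraction 10.7.3.1, hold background-subtracted processed signals in intensity units. The authors' value table holds normalized log2 values of 25944 probes and was used only as an alternative. Here each array's processed signal was divided by its 75th percentile and log2 transformed, control spots and outlier flags were left out, and spots of 1 probe were averaged. A probe was tested where a share of over 0.5 of its spots was well above background on 4 or more arrays (32023 of 39429 probes).

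Tests used limma 3.58.1 in R 4.3.3 on all 4 groups with Benjamini-Hochberg adjustment, 6 contrasts, and 2-sided exact permutation tests for single values. Relations with marker lists were permuted 100000 times within groups. Code was tested on simulated data. Slides, 5 in number, were read from the file headers. Alternatives changed the scaling (quantile, median centring), the background (normexp, offset 50), the table (the authors' values), the dim-probe filter, blocking by slide or replicate number, array weights, the groups fitted, the variance prior, the call threshold, the probe summary and the arrays included. Between 67.1% and 80.1% of probes were above background per array, and the number of arrays limits the precision. All members were named. Of the pathway lists, the genes called on either diet were named (at most 6 of a list, by adjusted p on NCD), and for called members the 5 most like and 3 most opposite genes. The members and lists were chosen with earlier results of these data known. 1 gene's own levels are not reported here.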

Additional observations from a re-analysis of the deposited data

Results flagged for a closer look

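In 3 of the 36 groups of 4 or 5 arrays examined, 1 per gene and group, a single array stood apart from the rest of its group by Dixon's ratio, which chance gives in about 1 in 20 groups. Igfbp5 read 2.57 in AR113Q-HFD replicate 5, where the nearest array of the group read 3.38; without it the HFD log2 fold change was -1.08 and still called (limma, adjusted p = 0.000455). Acvr2a read -0.78 in CTR-HFD replicate 3, where the nearest read 0.00; without it the HFD log2 fold change was -0.89 (adjusted p = 0.000691). The same array had the highest slow fiber level of the CTR arrays, 5.30. Fst read -0.30 in AR113Q-HFD replicate 2, where the other 4 arrays read 0.00 to 0.09. The cause of these values was not tested.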

How the results depend on the processing

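Igfbp5 kept its call on both diets under every alternative tried, with log2 fold changes from -1.52 to -1.14 on NCD and from -1.38 to -1.08 on HFD. Fold thresholds aside, which only Igfbp5 passed, Acvr2a was called under 22 of 24 alternatives on NCD and 21 of 23 on HFD, and Igf2 under 17 of 24 on NCD. Both NCD calls were lost with median centring (Acvr2a -0.58, Igf2 -0.47) and normexp (-0.52 and -0.91), that of Igf2 also in the authors' values (-0.43). In that table Acvr2a was read by its dimmer probe (-0.57 on NCD, adjusted p = 0.0471), since its brightest probe was not among the rows used. The number of members called on NCD was 3, and 1 with median centring, normexp or fold thresholds (at least 1.5 or at most 0.6). Igf2 dropped out on NCD in the authors' values and without the 3 CTR arrays with the highest slow fiber level, leaving Igfbp5 and Acvr2a. On HFD the number was 2, and 1 with median centring or fold thresholds. Over both diets it was 3, and 1 with fold thresholds. With slide as a block Igf1 was added on HFD and over both diets (limma, adjusted p = 0.024 and 0.0245). The calls over all probes rose as well with this block. They numbered 3051 higher and 5973 lower on HFD, against 2476 and 3252 without it. Over both diets they numbered 4709 and 8063, against 4160 and 5222. Leaving out each array gave 2 to 3 on NCD, 1 to 3 on HFD (1 without CTR-HFD replicate 4, 3 without AR113Q-HFD replicate 1) and 3 to 4 over both. Inhba on HFD then ran from -0.35 to 0.13 (positive without CTR-HFD replicate 3) and Igf1r on HFD from -0.0057 to 0.090 (negative without AR113Q-HFD replicate 1). Without the 3 CTR arrays with the highest slow fiber level, an alternative chosen after seeing the data, Inhba was 0.20 on NCD and 0.13 on HFD. The cause of these changes was not tested.

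Normexp moved the median NCD log2 fold change of all probes to -0.57, from -0.06. Relative to that median Igfbp5 was -0.57, Igf2 -0.34 and Acvr2a 0.05. On HFD the normexp median was -0.02, and relative to it Igfbp5 was -1.26, Igf2 -0.14 and Acvr2a -0.59. Of the list genes named as changed, Bmpr1b on NCD turned to -0.03 under normexp. Relative to the NCD median, Gsk3a, Irs1, Smad3, Smurf2 and Rictor were then above 0 (0.44, 0.24, 0.33, 0.28 and 0.01). The probes called numbered 2587 higher and 2978 lower on NCD and 2476 and 3252 on HFD. They numbered 3134 and 2698 (NCD) and 3287 and 2512 (HFD) with quantile normalization, 1372 and 1088 and 1521 and 1054 with median centring, and 2440 and 2085 and 2509 and 1890 in the authors' values. With normexp they fell to 436 higher and 434 lower on NCD and to 402 and 633 on HFD.

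Samples of 1 number in different groups did not all deviate together: over 27 pairs the correlation of deviations ran from -0.21 to 0.54, with 20 over 0.1, and the numbers mostly match the slides. With the replicate block 3 members were called on NCD, 3 on HFD (Igf1 added, -0.46) and 4 over both diets. Of the 32023 probes tested, 2648 were then called higher and 4361 lower on HFD, against 2476 and 3252 without the block. Over both diets 4437 were higher and 6539 lower, against 4160 and 5222.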
